A study of Mus musculus with 16 samples.

Results

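The 10 genes described here are 9 growth factor receptor tyrosine kinases (Fgfr1, Fgfr2, Fgfr3, Kit, Igf1r, Met, Ret, Egfr and Erbb2) and Kitl, which encodes the ligand of Kit and is not itself a kinase. They were chosen by name, with earlier results of these data known. All 10 symbols were found among the 17655 genes listed in each file. Their RNA was measured by sequencing in mouse cells that the labels call preSC, neuroendocrine cells of the lung that are positive for Chga (chromogranin A, a protein of secretory granules). In both groups the cells lacked Rb1 and Trp53 and had 1 null allele of Rbl2, and both groups had received doxycycline (1 µg/mL for 48 hours). The empty group carried an empty lentiviral control and the Wnt5a group a lentivirus with Wnt5a, a secreted Wnt ligand, with 8 samples in each. The labels do not say whether the samples came from separate cultures or infections, or whether the cells were 1 clone, so the p-values measure only the spread between these libraries, which may be technical.

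The reads counted over the listed genes, recovered from the deposited values, numbered 7526676 to 8859862 per sample. Within a group, samples 1 to 4 differed from each other by little more than counting noise, as did samples 5 to 8 (index of dispersion 0.987 to 1.05 over 24 pairs, where 1 is counting noise; 5.23 to 5.44 over the other 32 pairs). Each set of 4 was therefore averaged and counted as 1 sample, called library A (samples 1 to 4) and library B (samples 5 to 8), which gives n = 2 per group. Wnt5a itself, the check of the labels, was at 122 ± 31.4 in empty and 1279 ± 325 with Wnt5a (SD, n = 2). Values are normalised read counts, the authors' read counts per gene divided by 1 factor per sample. Of the neuroendocrine markers, Chga was at 4043 ± 462 in empty and 3403 ± 561 with Wnt5a. Calca, which encodes calcitonin and CGRP, was at 8248 ± 348 and 6657 ± 455. Neither passed the limma test (adjusted p = 0.428 and 0.154). Chga and Calca had the largest log2 differences of the 8 neuroendocrine markers listed, and the others differed by less. All 8 were tested and 0 passed, beside 2.06% of all genes tested. Among markers of other cell types, Epcam, a gene of epithelia, lay at 5558 to 6179 over the 4 libraries, Vwf, an endothelial gene, at 2002 to 3205, and Dcn, a fibroblast gene, at 241 to 597, while Foxj1, of ciliated cells, was at 21.8 to 24.2 and Ager, of alveolar cells, at 10.9 to 14.9. The fibroblast collagens Col1a2 and Col3a1, the endothelial cadherin Cdh5 and the mast cell receptor subunit Fcer1a had at most 3 reads each over all 16 samples. In bulk RNA, a smaller number of cells with a transcript and less of it per cell cannot be told apart.

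Receptor tyrosine kinases span the cell membrane and are activated when a growth factor brings receptor chains together, upon which their kinase domains phosphorylate each other and adaptor proteins that lead to the Ras-ERK and PI3K pathways. Ret binds ligands of the GDNF family through GFRα co-receptors, Kit binds stem cell factor, Met binds hepatocyte growth factor, Igf1r binds the insulin-like growth factors, Egfr and Erbb2 belong to the ErbB family, and the Fgfr genes encode receptors for fibroblast growth factors. Small cell lung cancer has long been known for expression of KIT together with its ligand, and RET is a receptor of neural crest and neuroendocrine cells.

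Levels were compared between genes per kilobase of the longest annotated transcript (normalised read count per kilobase). On that scale Ret was the most abundant of the 10 genes in both groups, at 751 ± 35.2 in empty and 734 ± 31.5 with Wnt5a (SD, n = 2), above 95.1% of all genes tested. Kit followed at 263 ± 17.1 and 234 ± 7.26. In the empty libraries the order then ran Fgfr2 (146 ± 0.391), Kitl (136 ± 13.5), Egfr (124 ± 7.25), Igf1r (83.2 ± 16.7) and Met (55.7 ± 15.95). Kitl and Egfr overlapped there, so their order is not resolved, and Fgfr2 stood above Kitl by a small margin (146.1 in the lower Fgfr2 library, 145.9 in the higher Kitl library). In the Wnt5a libraries Kitl (145 ± 35.4) and Fgfr2 (139 ± 3.20) overlapped, as did Igf1r (56.8 ± 9.96) and Met (47.7 ± 5.76). Fgfr3, Fgfr1 and Erbb2 came last in both groups, with means of 4.03, 1.26 and 0.0233 per kilobase with Wnt5a. The first place of Ret depends on the length used. Per kilobase of the median annotated transcript, Egfr stood above Ret, at 1766 against 824 in empty and 1519 against 805 with Wnt5a.

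**Figure D1:**
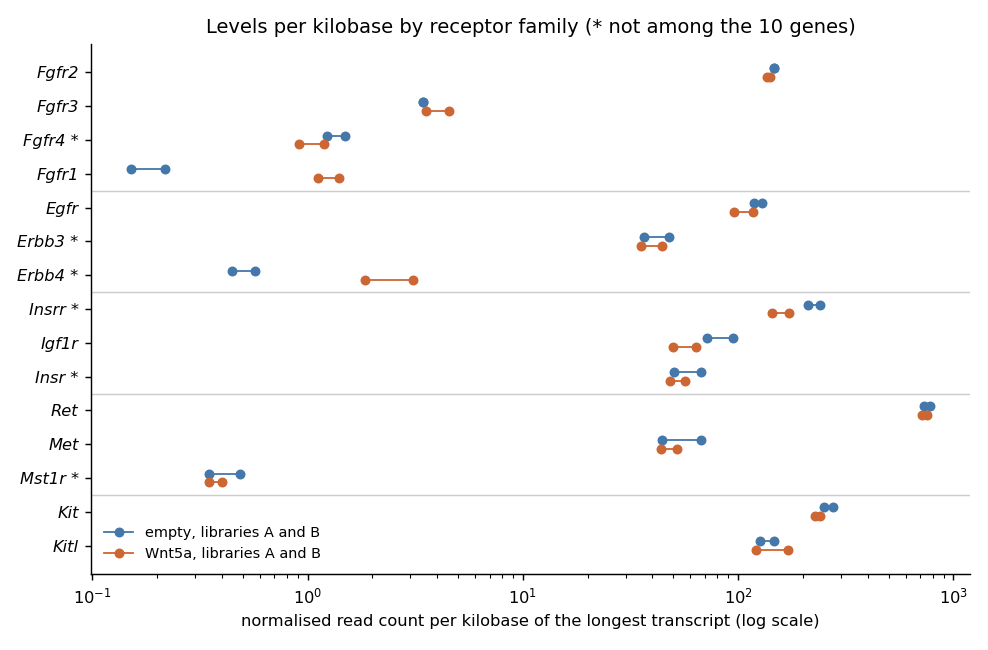
Normalised read count per kilobase of the longest transcript (log scale) for the receptor genes and Kitl, grouped by family. Each dot is 1 library (blue, empty; orange, Wnt5a) and the line joins libraries A and B; asterisks mark relatives outside the 10 genes, and Erbb2 is not drawn because 3 of its 4 libraries are at 0. Ret is highest, near 700 to 800, and Fgfr1, Fgfr3, Fgfr4, Erbb4 and Mst1r lie under 5.

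Ret, the receptor with the most reads, had 4099.8 ± 192 normalised counts in empty and 4004 ± 172 with Wnt5a. Over the 8 samples of a group, the lowest, median and highest values were 3834, 4136 and 4275 in empty and 3769, 4065 and 4163 in Wnt5a. The groups overlapped: empty library A (4236) was the highest and Wnt5a library A (3883) the lowest of the 4. The log2 difference, Wnt5a minus empty on log2(value + 1), was -0.03 (95% interval -0.22 to 0.16; limma adjusted p = 0.905). Its co-receptor gene Gfra1 was at 356 ± 39.8 and 390 ± 29.7, and the ligand genes Artn (artemin, 199 ± 11.8 and 176 ± 4.45) and Nrtn (neurturin, 107 ± 24.6 and 82.5 ± 2.90) were also read. None of the latter 3 passed the test (limma adjusted p = 0.658, 0.468 and 0.389). The other co-receptor genes were low in empty and Wnt5a libraries: Gfra2 at 0.254 and 0.820, Gfra3 at 0 and 0.118, and Gfra4 at 4.25 and 9.85. Gdnf was not among the listed genes. Whether these ligands and co-receptors work together in these cells was not tested.

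Kit and its ligand Kitl were read side by side in every sample. Kit was at 1376 ± 89.8 in empty and 1224 ± 38.1 with Wnt5a. The sample values had a minimum, median and maximum of 1251, 1371 and 1482 in empty and of 1183, 1214 and 1283 in Wnt5a. Both Wnt5a libraries (1251 and 1197) lay under both empty libraries (1440 and 1313), although single samples overlapped. The log2 difference of -0.17 (95% interval -0.36 to 0.02) did not pass the test (limma adjusted p = 0.375). Kitl, in contrast, differed more between libraries A and B than between the groups. It was at 716 and 824 in empty libraries A and B and at 680.1 and 963 in Wnt5a libraries A and B, with sample values of 680 to 841 (median 770.2) and 671 to 986 (median 809). Its log2 difference was 0.07 (95% interval -0.32 to 0.46; limma adjusted p = 0.898), and its direction turned to -0.03 without empty library A and to -0.18 without Wnt5a library B. Of the mast cell markers, of which Kit is often counted as one, only Fcer1a was among the listed genes, and it had 1 read in all.

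**Figure D2:**
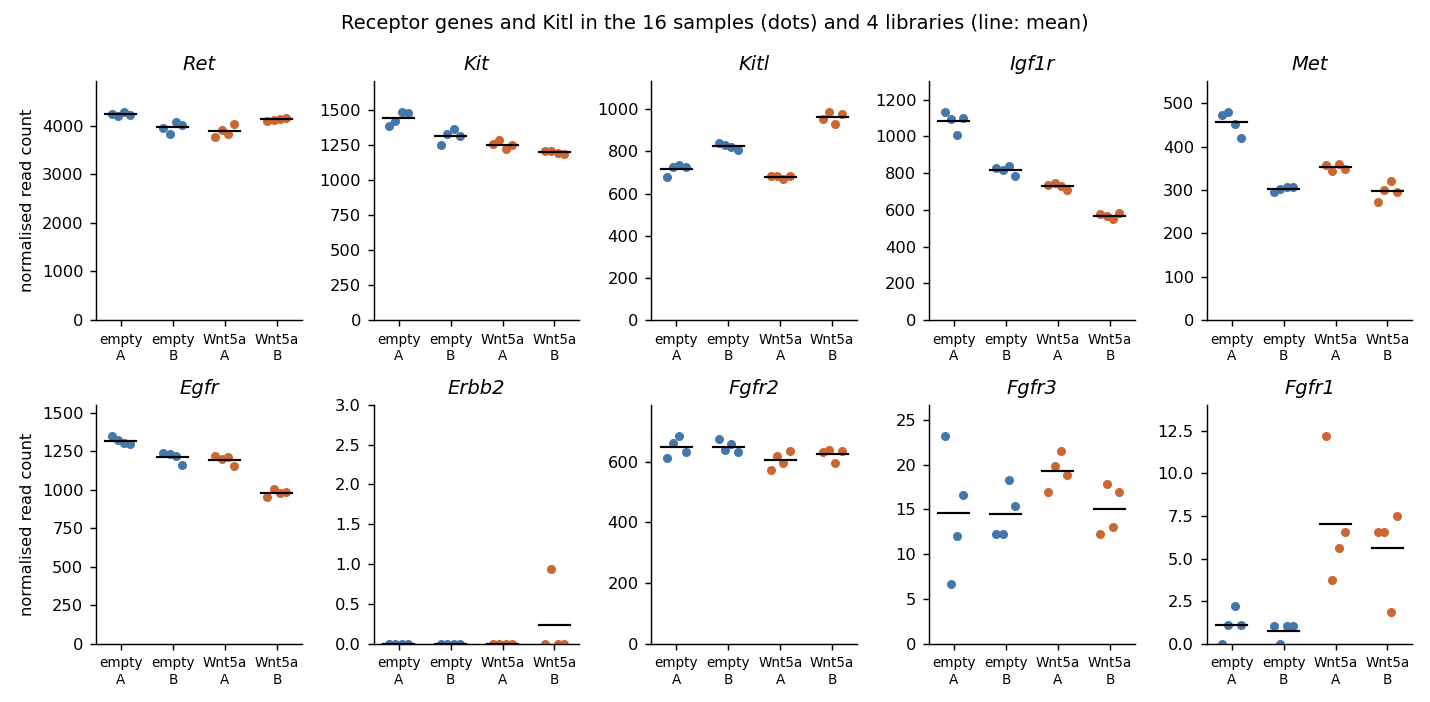
Normalised read count (linear axes from 0, each with its own scale) of the 9 receptor genes and Kitl in the 16 samples. Dots are samples, spread sideways only for legibility, and black lines are the means of libraries A and B (blue, empty; orange, Wnt5a). Igf1r is lower in all Wnt5a samples than in all empty samples, as are Insrr and Irs1, which are not drawn. Kitl is higher in library B of both groups, and Erbb2 has 1 nonzero sample.

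Among the FGF receptors, which differ in ligand preference and in the tissues that use them, Fgfr2 held nearly all of the signal. Taken per kilobase over Fgfr1 to Fgfr4, its share was 96.6% to 96.8% in empty and 95.04% to 96.2% with Wnt5a. Fgfr2 was at 648 ± 1.73 in empty and 615 ± 14.2 with Wnt5a, with sample values of 612 to 685 (median 647) and 571 to 638 (median 625). The libraries did not overlap, but the samples did, and the log2 difference was -0.08 (95% interval -0.25 to 0.10; limma adjusted p = 0.712). Fgfr3 was low, at 14.6 ± 0.0725 and 17.1 ± 3.01, from 110 reads in empty and 146 with Wnt5a. Its samples ranged from 6.64 to 23.2 (median 13.8) in empty and from 12.2 to 21.5 (median 17.4) in Wnt5a, and its log2 difference was 0.21 (95% interval -0.32 to 0.74; limma adjusted p = 0.747).

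Fgfr1 was close to the limit of detection. The empty libraries held 4 and 3 reads and the Wnt5a libraries 30 and 24, or 0.933 ± 0.238 and 6.34 ± 0.998 normalised counts. Single samples ran from 0 to 2.19 (median 1.02) in empty and from 1.87 to 12.2 (median 6.57) in Wnt5a, so the libraries stood apart while the lowest Wnt5a sample fell within the empty range. Summed over libraries and corrected for depth, the ratio of Wnt5a to empty reads was 6.84 (exact 95% interval 3.10 to 17.8, for counting error only). The mean value of Fgfr1 was under the minimum of 10 used for testing. In the limma fit without that minimum its log2 difference was 1.92, with an adjusted p of 0.053. Of its neighbours in RefSeq gene order, 5430421F17Rik was lower still (0.128 and 0.469 in empty and Wnt5a libraries), while Tacc1 was at 582 and 543, Letm2 at 29.4 and 33.6 and Nsd3 at 1345 and 1306.

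The ErbB receptors spanned a wide range of levels. Egfr, the receptor for EGF and TGFα, was at 1265 ± 74.1 in empty and 1088 ± 154 with Wnt5a. Its samples ranged from 1163 to 1349.7 (median 1267) in empty and from 954 to 1222 (median 1077) in Wnt5a, and empty library B (1212) lay just above Wnt5a library A (1196). The log2 difference was -0.22 (95% interval -0.48 to 0.04; limma adjusted p = 0.395). Egfr lies on chromosome 11, where the median of the 1020 genes tested was 0.17 higher with Wnt5a. With chromosome medians subtracted its log2 difference was -0.39, with a limma adjusted p of 0.204. Its ligand gene Tgfa was at 530 ± 10.7 and 482 ± 9.54, a difference that did not pass the test (limma adjusted p = 0.461).

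Erbb2, which binds no ligand of its own and works as the partner of the other ErbB receptors, had almost no reads. It had 0 of 62813091 reads in the empty libraries, which allows up to 0.397 normalised counts (3 reads, counting error only), and 1 of 70418339 reads with Wnt5a, in library B. Of its neighbours in RefSeq gene order, Tcap, a muscle gene, was also close to 0 (0.138 and 0.470), while the others were read: Pgap3 was at 222 and 218 in empty and Wnt5a libraries, Mien1 at 381 and 425, and Grb7, an adaptor gene, at 682 and 660.5. Erbb3 was at 254 ± 47.6 and 240.1 ± 38.6. Per kilobase of the longest transcript, Egfr made up 71.1% to 76.2% and Erbb3 23.5% to 27.0% of the ErbB signal over the 4 libraries. These shares depend on the length used: per kilobase of the median transcript, Egfr was at 1766 and Erbb3 at 42.2 in empty. Erbb2 was low in both groups and was not tested between them, and whether its near absence of reads lies in the cells or in the counting was not tested.

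Egfr and Erbb2 belong to the same family and lie on the same chromosome, the former well read and the latter close to 0, and their promoters are therefore shown. RefSeq sequences were matched for 8 of the 10 genes in GRCm38.p6, each from 250 bases before to 50 bases after a start site. CG dinucleotides, the sites of promoter methylation in mammals, are in capitals. The Egfr window is chr11:16751953-16752252 (plus strand) and the Erbb2 window is chr11:98412234-98412533 (plus strand).
Egfr: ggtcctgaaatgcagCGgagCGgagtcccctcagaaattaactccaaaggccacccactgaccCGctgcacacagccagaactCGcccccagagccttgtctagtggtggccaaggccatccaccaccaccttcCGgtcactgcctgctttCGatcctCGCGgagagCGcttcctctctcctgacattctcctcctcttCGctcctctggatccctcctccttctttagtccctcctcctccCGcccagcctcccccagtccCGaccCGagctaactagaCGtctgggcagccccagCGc
Erbb2: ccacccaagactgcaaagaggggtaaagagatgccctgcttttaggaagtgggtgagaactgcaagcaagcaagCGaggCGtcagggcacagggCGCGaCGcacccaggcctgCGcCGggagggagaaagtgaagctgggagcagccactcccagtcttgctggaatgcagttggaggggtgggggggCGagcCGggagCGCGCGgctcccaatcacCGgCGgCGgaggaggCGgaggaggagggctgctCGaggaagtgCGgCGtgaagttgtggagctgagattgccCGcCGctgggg
The Egfr window holds 15 CG dinucleotides and the Erbb2 window 21. Of all 32851 RefSeq windows of this length, 34.6% hold at least 15 and 24.8% at least 21, and the median is 7. The other windows matched hold from 4 (Fgfr2) to 48 (Igf1r). Any relation of the number of CG dinucleotides to the RNA level was not tested. Methylation was not measured.

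Igf1r, the receptor for IGF1 and IGF2, showed the largest difference of the tested genes in the set. It was at 1083 and 815 in empty libraries A and B and at 728 and 568 in Wnt5a libraries A and B. Sample values had a minimum, median and maximum of 782, 923 and 1131 in empty and 547, 643 and 744 in Wnt5a. The 16 samples of Igf1r thus separated completely by group, which is not particular to it. Samples of 1 library are not independent, and the share of all genes that separated in this way was not counted. Insrr, Irs1 and Etv1, among other genes of the lists below, also separated in this way. So did Igfbp5, with a limma adjusted p of 0.619. The means of 949 ± 190.0 and 648 ± 114 differ by 31.7%, a log2 difference of -0.55 (SE 0.16; 95% interval -0.94 to -0.15). The unadjusted limma p was 0.014 and the adjusted p 0.169, so the difference did not pass over all genes. An exact permutation of library labels (two-sided) had p = 0.333, which is the lowest value that 2 against 2 can reach. DESeq2 on the recovered reads called it (log2 difference -0.55, adjusted p = 0.011) and edgeR did not (adjusted p = 0.164). Without empty library B it passed in limma (-0.75, adjusted p = 0.00053), and without empty library A it was at -0.34 (adjusted p = 0.196), where the lone empty library is assumed to vary like the others. Over the 15 alternatives the log2 difference of Igf1r ranged from -0.75 to -0.34. Its lowest limma adjusted p, 6.5e-05, came from 16 samples counted separately, which treats samples of 1 library as independent. With the libraries as units and no minimum value, its limma adjusted p was 0.308. Library B lay under library A in both groups, with log2 differences of -0.41 (empty) and -0.36 (Wnt5a). Dcn (597 and 340.2 in empty libraries A and B, 241 and 246 in Wnt5a libraries A and B) was likewise lower in both Wnt5a libraries. So was Vwf (3205, 2330.3, 2300.5 and 2002, in the same order), by a small margin between empty library B and Wnt5a library A. Neither passed the test (limma adjusted p = 0.131 and 0.337). Of the 6 fibroblast and 5 endothelial markers listed, only Dcn and Vwf reached the minimum value of 10. Their part in the values of Igf1r was not tested.

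Met, the receptor for hepatocyte growth factor, also separated the libraries more than the groups. It was at 456 and 303 in empty libraries A and B and at 352 and 297 in Wnt5a libraries A and B, with sample values of 295 to 479 (median 364) and 273 to 360.4 (median 332). Empty library A alone stood above the rest. The log2 difference was -0.20 (95% interval -0.66 to 0.26; limma adjusted p = 0.713). It became -0.50 (adjusted p = 0.018) without empty library B and 0.10 (adjusted p = 0.960) without empty library A. The ligand gene Hgf was at 699.9 ± 27.2 and 662 ± 51.1 (limma adjusted p = 0.748), so receptor and ligand were read in the same libraries, as for Kit and Kitl.

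Of the 10 genes, 8 had a mean value of at least 10 and were tested, Fgfr1 and Erbb2 being under it. In limma 0 of these 8 passed an adjusted p of 0.05, beside 2.06% of all 12357 genes tested. At an unadjusted p under 0.05 there was 1 of 8, Igf1r, beside 16.1% of all genes tested. On the recovered reads edgeR called 0, beside 1.99% of all genes tested, and DESeq2 called 1, beside 4.35%. The log2 differences were negative for 6 (Ret, Kit, Fgfr2, Egfr, Igf1r and Met; 49.3% of all genes tested) and positive for 2 (Kitl and Fgfr3), with a median of -0.12 beside 0.0026 for all genes tested. The libraries of the groups did not overlap for 5 of the 8, beside 44.2% of all genes tested. For 5 of them (Ret, Kit, Kitl, Fgfr2 and Egfr) the 95% interval lay within 0.5 of 0 on the log2 scale, while Igf1r, Met and Fgfr3 had wider limits.

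**Figure D3:**
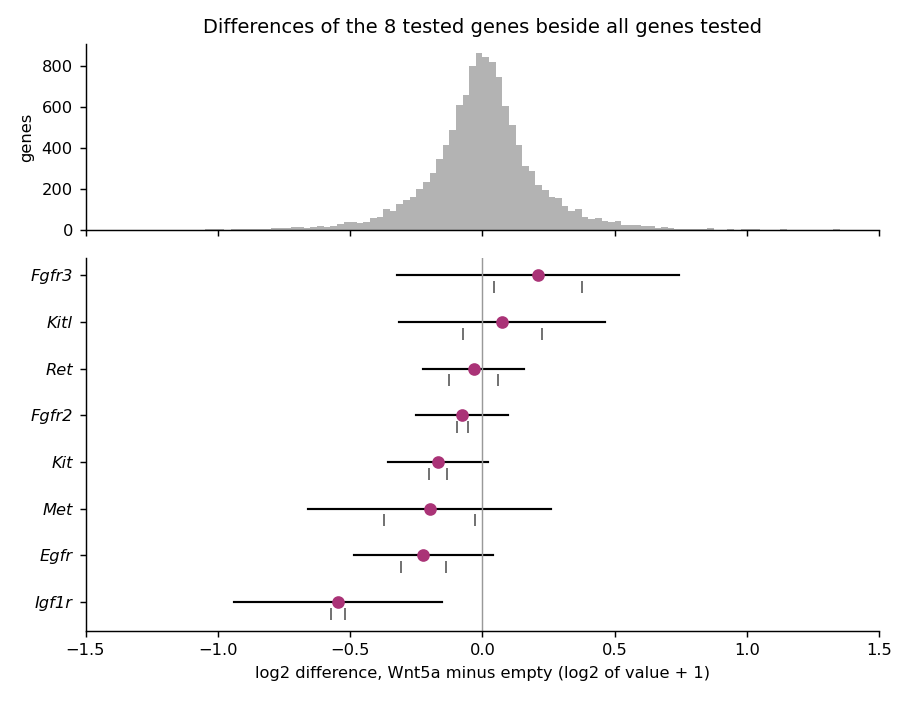
Upper panel, histogram of the log2 difference (Wnt5a minus empty) of all 12357 genes tested, with 108 genes beyond 1.5 not drawn. Lower panel, the 8 tested genes of the set (dot, limma estimate; line, 95% interval; grey ticks, the differences A to A and B to B). The interval of Igf1r, from -0.94 to -0.15, is the one that does not include 0, before adjustment over all genes.

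The wider pathway was read from 4 lists of related genes, also chosen with earlier results of these data known. Their counts are therefore a description. Of all genes tested, 2.06% were called in limma, 16.1% had an unadjusted p under 0.05 and 49.3% had a negative difference. Of 46 other receptor tyrosine kinases listed, 43 were in the files and 21 were tested. In limma 1 rose and 0 fell, with a median log2 difference of -0.02 and 4 of 21 genes at an unadjusted p under 0.05 (16.1% over all genes). The gene that rose was Erbb4, a receptor for neuregulins, from 6.12 ± 1.096 to 29.7 ± 10.5, with a log2 difference of 2.07 (SE 0.30; limma adjusted p = 0.024). Erbb4 reached the minimum through its Wnt5a libraries and rests on 25 and 21 reads in empty and 158 and 95 with Wnt5a. Without Wnt5a library A its adjusted p was 0.082, and without the minimum value 0.093. Insrr, an orphan relative of the insulin receptor, was at 1154 ± 105 in empty and 809 ± 104 with Wnt5a, a log2 difference of -0.51 that did not pass (limma adjusted p = 0.081).

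Of 37 ligand genes for these receptors, 29 were in the files and 11 were tested. In limma 0 rose and 1 fell, with a median of -0.34; 10 of the 11 differences were negative (beside 49.3% of all genes) and 4 had an unadjusted p under 0.05 (16.1% of all genes). The gene that fell was Igf2, a growth factor of fetal tissue and the ligand of Igf1r, from 8260.1 ± 324 to 5518 ± 278. Its libraries were at 8031 and 8489 in empty and 5714 and 5322 in Wnt5a, a log2 difference of -0.58 (SE 0.08; limma adjusted p = 0.024). The call was lost without Wnt5a library B (adjusted p = 0.102), without the minimum value (0.085) and without the trend in eBayes (0.067). Fgf5, a ligand of the FGF receptors, was at 303 ± 18.7 and 235 ± 1.55 (limma adjusted p = 0.116).

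Of 42 co-receptors, adaptors and binding proteins, 41 were in the files and 29 were tested. In limma 3 rose and 0 fell, beside 2.06% called over all genes, with a median of -0.08 and 6 of 29 genes at an unadjusted p under 0.05 (16.1% over all genes). Grb10, an adaptor that binds the insulin and IGF1 receptors and restrains their signal, rose from 105 ± 9.10 to 328 ± 47.4, a log2 difference of 1.63 (limma adjusted p = 0.0022). Grb10 lies on chromosome 11, with its higher median of 0.17. Igfbp2, a secreted binding protein for insulin-like growth factors, rose from 1.32 ± 0.303 to 21.3 ± 1.30, a log2 difference of 3.27 (limma adjusted p = 0.0032). Shc2, an adaptor of the Shc family, rose from 5.28 ± 0.449 to 27.2 ± 1.71, a log2 difference of 2.17 (limma adjusted p = 0.0066). Igfbp2 and Shc2 reached the minimum through the Wnt5a libraries and had 10 and 40 reads in the empty libraries together.

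Other genes of the insulin-like growth factor axis, put together from these lists after their values were seen, are given for description. The receptor gene Insr was at 551 ± 112 and 490.3 ± 54.7 (limma adjusted p = 0.705). The substrate genes Irs1 (310.4 ± 33.9 and 248 ± 5.29) and Irs2 (337 ± 90.5 and 269 ± 26.8) did not pass either (limma adjusted p = 0.195 and 0.497). Igfbp5, another binding protein of these ligands, was far more abundant than Igfbp2 in counts not corrected for length, at 40570.6 ± 3535 and 36464 ± 673 (limma adjusted p = 0.619). Its log2 difference was -0.15. Igfbp5, Igfbp2 and Irs1, like Erbb4, lie on chromosome 1, where the median log2 difference of the 690 genes tested was -0.17.

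**Figure D4:**
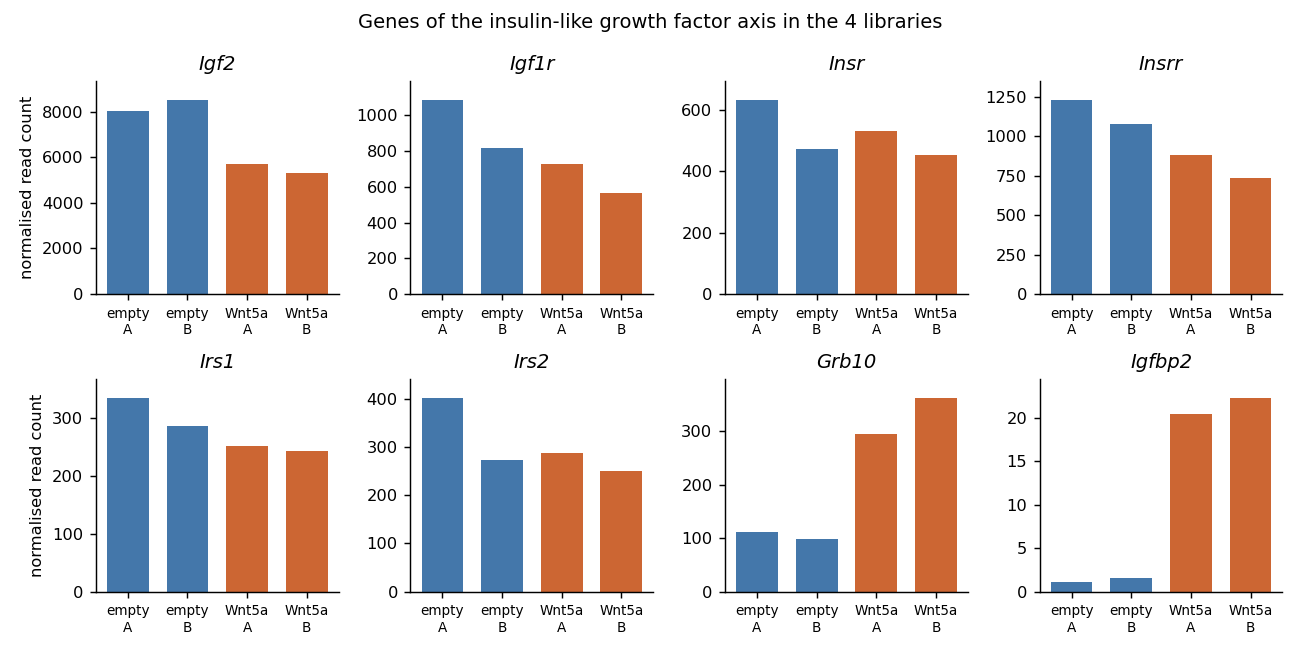
Normalised read count (bars from 0, each panel with its own scale) of 8 genes of the insulin-like growth factor axis in libraries A and B of each group (blue, empty; orange, Wnt5a). Igf2 is lower and Grb10 and Igfbp2 are higher in both Wnt5a libraries, and Igf1r is lower in both without passing the limma test.

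Of 25 feedback regulators and targets of receptor and ERK signalling, all 25 were in the files and 19 were tested. In limma 1 rose and 1 fell, beside 2.06% called over all genes, with a median of -0.01 and 6 of 19 genes at an unadjusted p under 0.05 (16.1% over all genes). Dusp6, a phosphatase that removes the activating phosphates of ERK, rose from 240.2 ± 13.6 to 354 ± 3.91, a log2 difference of 0.56 (SE 0.09; limma adjusted p = 0.033). Etv1, an ETS transcription factor, fell from 1038 ± 33.8 to 679 ± 28.5, a log2 difference of -0.61 (SE 0.08; limma adjusted p = 0.013). The call of Dusp6 was lost without Wnt5a library A (adjusted p = 0.129) or B (0.135), with no minimum value (0.076), with a minimum of 50 (0.0502) and without the trend (0.070). The call of Etv1 was lost without Wnt5a library B (0.066) and without the trend (0.056). Dusp4 (37.8 ± 3.12 and 61.0 ± 9.21) and Etv4 (11.5 ± 0.0769 and 24.99 ± 5.45) did not pass (limma adjusted p = 0.116 and 0.087).

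**Figure D5:**
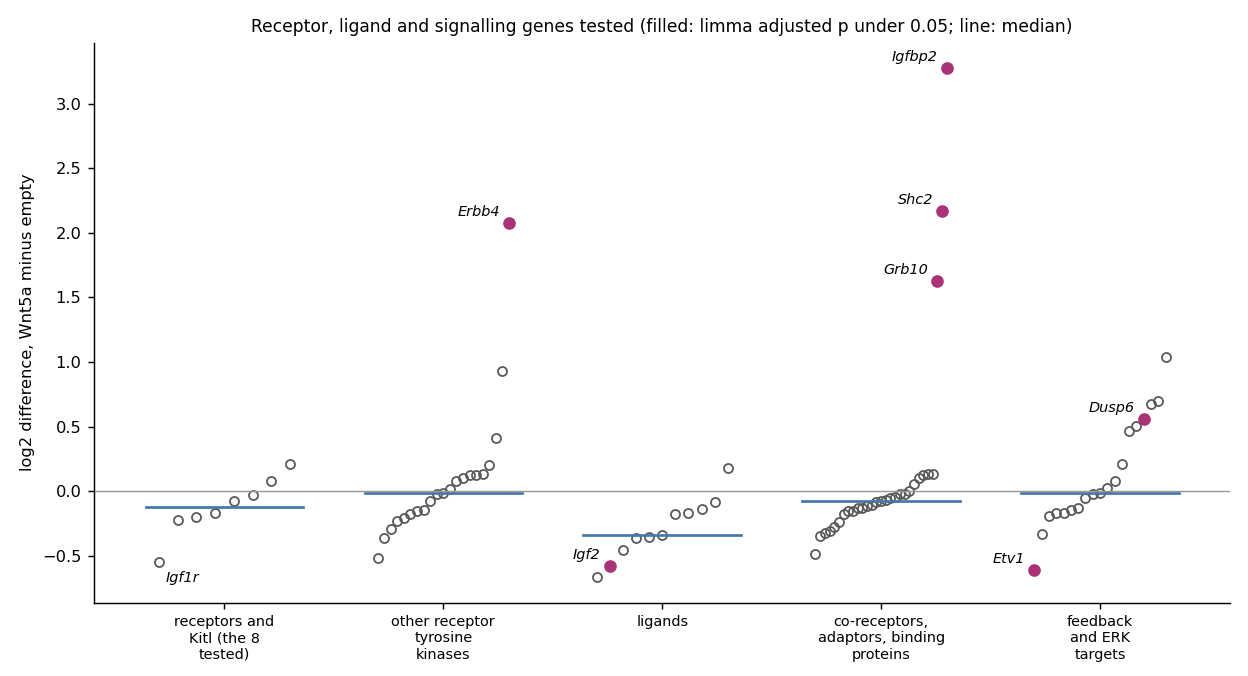
Log2 difference (Wnt5a minus empty) of each tested gene in the receptor set and in the 4 lists of related genes. Filled dots passed the limma adjusted p of 0.05, open dots did not, and blue lines are medians. The receptor set has 0 filled dots and the 4 lists together have 7, of which Igf2 and Etv1 are below 0.

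The tested genes with the pattern nearest to Igf1r were found by Euclidean distance over the 4 libraries, on log2 values centred on each gene's mean. They were Saxo2, Vps13d and Adgre5, at distances of 0.054, 0.065 and 0.073 against a median of 0.69 over all genes. Their log2 differences were -0.50, -0.50 and -0.50, and none passed the test (limma adjusted p = 0.402, 0.226 and 0.346). The distance was taken over 4 libraries only. These genes are the nearest of 12356 searched, so small distances and differences close to that of Igf1r follow from the choice.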

How the data were processed

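The deposited files hold 1 signal value per gene and sample. Per the submitters' processing notes, TopHat, Bowtie, HTSeq and DESeq2 were used; their roles, the genome build, the annotation and strand use are not given in the sources used here, so overlapping genes carry added uncertainty. In each file 100% of the deposited values were whole multiples (tolerance 0.01) of 1 step, so read counts were recovered by division. The members and lists were chosen with earlier results of these data known. A further neuroendocrine marker is not reported here.

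Genes with a mean value of at least 10 (12357) were compared with limma 3.58.1 (R 4.3.3; eBayes with trend) on log2(value + 1) of the library means, p-values being adjusted over these genes by Benjamini-Hochberg and called at 0.05. The pseudocount understates the change of low genes. The script was tested on simulated data. Alternatives were pseudocounts 0.1 and 10, no minimum or a minimum of 50, quantile normalization, chromosome medians subtracted, eBayes without trend, a replicate block, 16 separate samples, edgeR 4.0.16 and DESeq2 1.42.0 on recovered reads summed per library, and omission of each library. Genes named were all 10 members, up to 5 called genes of each list by size of difference, and the 3 patterns nearest to the member that differed most; other genes were named after their values were seen. Transcript lengths came from GENCODE M21, and chromosomes and neighbours from RefSeq GRCm38.p6.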

Additional observations from a re-analysis of the deposited data

How the results depend on the processing

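The number of genes called over all genes was 254 (67.3% of them higher) and became 146 with no minimum value, 102 with a minimum of 50, 158 without the trend, 4377 with 16 separate samples, 538 with DESeq2 and 138 to 1098 when 1 library was left out; subtracting chromosome medians gave 206, of which 56.8% were higher. The labels number the samples alike in both groups, without saying that a number marks a shared batch; across genes, the deviations of libraries sharing a number had a correlation of 0.44. The counts of the set are read beside all genes tested, of which 35.4% passed with 16 separate samples and 4.35% with DESeq2. With the replicate block 2095 genes (17.0%) and 3 of the 10 genes (8 tested) passed: Igf1r (adjusted p = 0.0011), Egfr (0.034) and Kit (0.047). The same 3 genes passed with 16 separate samples, 1 passed with DESeq2, and 0 to 2 when a library was left out. Over all alternatives Fgfr2, Fgfr3, Kit, Igf1r and Egfr kept their direction; Ret turned to 0.0092 under quantile normalization, and with 1 library left out Ret lay between -0.082 and 0.014, Kitl between -0.18 and 0.33, and Met between -0.50 and 0.10. With the median transcript length, which counts short fragments, 6 of the 10 genes changed rank in the empty libraries, with Egfr first in place of Ret. Grb10, Shc2 and Igfbp2 passed in each alternative that tested them with all 4 libraries. Shc2 and Igfbp2 reached the minimum through their Wnt5a libraries, and a minimum of 50 left both out. The alternatives reuse the same libraries and are not independent support. Fgfr1 and Erbb2 had 7 reads and 0 reads in the empty libraries, which limits what can be said of them. The cause of these changes was not tested.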

Other observations

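Receptors under the minimum value include some that were read almost only with Wnt5a; these genes were chosen after their values were seen. Epha3, Epha4, Epha5 and Epha7 encode ephrin receptors, which guide cell contacts through membrane-bound ligands. Epha5 had 0 and 1 reads in empty libraries A and B and 76 and 51 in Wnt5a libraries A and B. Epha7 had 1 and 0 against 75 and 52, and Epha4 had 1 and 1 against 54 and 37. Epha3 had 0 reads in both empty libraries and 24 in each Wnt5a library, at least 14.2-fold higher against a floor of 3 reads over the group. Other Eph receptors under the minimum did not show this: Epha6 had 2 and 5 reads in the groups, Epha10 had 9 and 7, Ephb1 had 0 and 1, and Ephb4 had 1 and 1. Epha1, Epha2, Epha8, Ephb2, Ephb3 and Ephb6 were tested and did not pass (limma). In limma without the minimum value the adjusted p was 0.019 for Epha5 and Epha7, 0.022 for Epha4 and 0.017 for Epha3. Alk had 3 reads in empty and 23 with Wnt5a, a ratio of 6.79 (exact 95% interval 2.05 to 35.3, counting error only). Pdgfra, a marker of fibroblasts, went the other way, with 54 and 17 reads and a ratio of 0.279 (0.152 to 0.489). Of the 24 receptor genes under the minimum, 7 had at most 3 reads in both groups together.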
